A study of Vitis riparia with 12 samples.

Results

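The data described here are the transcript levels of 6 nuclear genes for subunits of the photosynthetic electron transport chain, in root tips and shoot tips of the wild grapevine Vitis riparia under water deficit (WD) and in watered controls (C). The 6 genes are PETC (VIT_12s0134g00510), PsbO (VIT_00s0207g00210), PsbR (VIT_19s0027g00200), PsaF (VIT_00s0125g00280), PsaE-B (VIT_07s0005g04920) and PsbS (VIT_18s0001g02740), out of 29966 gene models counted. They were chosen by their measured difference between WD root and C root, for which the study listed them among its photosynthesis genes, so the difference between WD root and C root, and any quantity that contains it, is given below as a description with no test. The difference between WD shoot and C shoot was not used in the choice and was tested. The difference between organs was tested too, although its root libraries also entered the contrast behind the choice.

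Potted V. riparia vines received no water (WD) or were watered daily (C), and tissue was taken after 14 d. RNA-seq was made from root tips and from shoot tips, giving 12 libraries (WD and C of each organ), with 3 replicates per group and 3 vines combined in each replicate. The sampling methods give different lengths for the collected root tips, and RNA was extracted by different methods from roots and shoots, so organ and extraction cannot be told apart. The reference for alignment was V. vinifera, another species of the genus. Root libraries had 14376065 to 22800079 reads on gene models, and shoot libraries had 17429395 to 27769527. The gene models were not annotated by description in the tables used here, so the labelled tissues were not checked against root or leaf markers, with the exception of the light-harvesting gene LHB1B1 given further on. The libraries are bulk RNA of whole tips, in which fewer cells of a type and less RNA per cell cannot be told apart.

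Photosystem II uses light to split water and passes the electrons through the cytochrome b6f complex to photosystem I, which hands them on to ferredoxin for the making of NADPH. The core subunits that carry the chlorophylls and cofactors are mostly encoded in the chloroplast, while the subunits described here are encoded in the nucleus and imported. These complexes are a hallmark of green tissue, and transcripts for them are usually scarce in roots. Among the 6 genes, PsbO encodes the extrinsic protein that stabilises the manganese cluster of the oxygen-evolving complex. PsbR encodes a small protein on the same side of photosystem II. PsbS encodes the sensor of lumen acidity that switches on the heat dissipation of excess light. PETC encodes the Rieske iron-sulfur protein of cytochrome b6f. PsaF encodes a photosystem I subunit at the docking site of plastocyanin, and PsaE-B encodes a stromal subunit at the docking site of ferredoxin.

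In the PN40024 12X assembly of V. vinifera, with the V1 gene models, PETC lies on chromosome 12 at 8142142 to 8145268, PsbR on chromosome 19 at 18708815 to 18709975, PsaE-B on chromosome 7 at 8155015 to 8156410 and PsbS on chromosome 18 at 2905881 to 2907423. PsbO (12517438 to 12519783) and PsaF (1947236 to 1948489) lie on sequence not assigned to a chromosome. Each interval is that of the gene model.

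All 6 genes were far higher in shoot tips than in root tips, and PETC had the lowest shoot level and the narrowest gap between organs. Levels are CPM, the reads on a gene relative to all reads on genes in the library, scaled by TMM over the 12 libraries. The 6 genes together made up 0.773 ± 0.23% of the gene reads in C shoot and 0.00166 ± 0.000651% in C root (SD, n = 3). Their summed level was 8147 ± 3179 CPM in C shoot, 11161 ± 2086 CPM in WD shoot, 15.7 ± 6.07 CPM in C root and 86.9 ± 38.5 CPM in WD root (SD, n = 3).

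**Figure D1:**
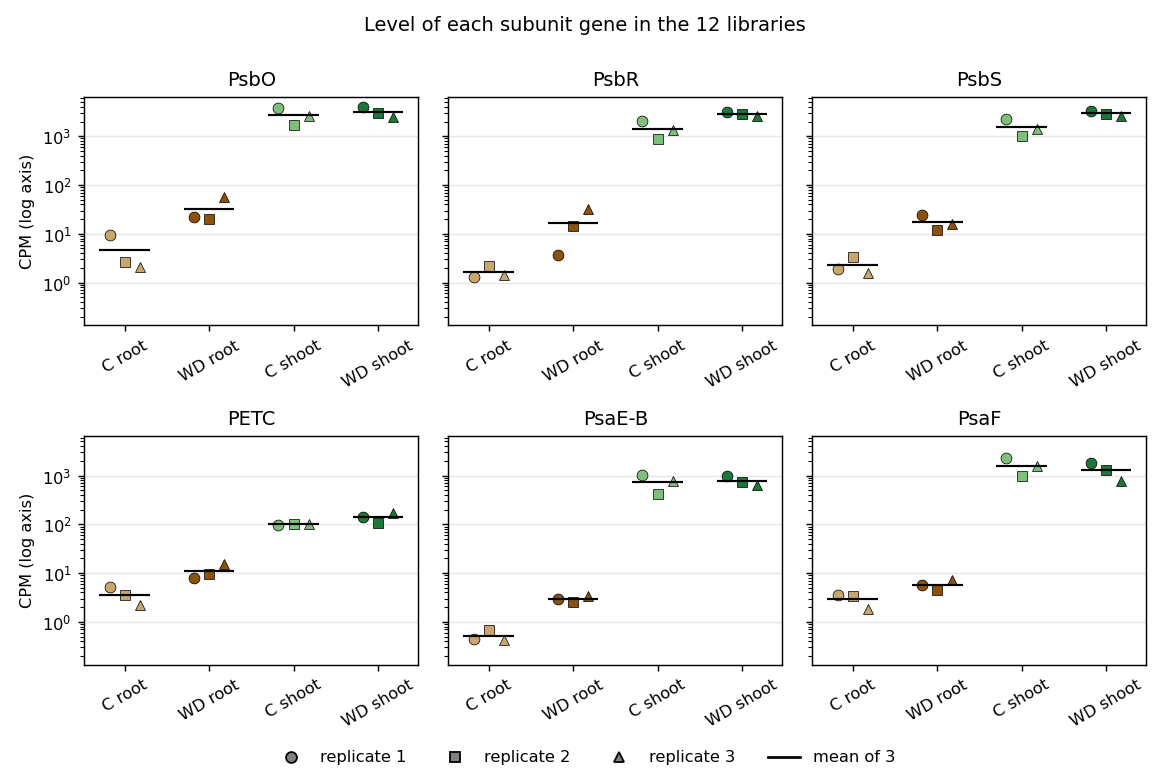
Level of each of the 6 genes in every library, as CPM scaled by TMM over 12 libraries on a log axis, with 1 point per library and a bar at the mean of the 3 replicates of a group. The 6 shoot libraries lie above the 6 root libraries for every gene, and PETC, at 94.8 to 167 CPM in shoot libraries, shows the narrowest gap.

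For the photosystem genes the C shoot level exceeded the C root level by 541-fold or more. PsaE-B showed the widest gap, with a log2 difference of 10.46 (SE 0.47), or 1407-fold, and an edgeR adjusted p of 2.94e-07. The log2 difference was 9.76 (SE 0.86) for PsbR, or 864-fold. It was 9.42 (SE 0.54) for PsbS, or 684-fold, 9.17 (SE 0.82) for PsbO, or 575-fold, and 9.08 (SE 0.56) for PsaF, or 541-fold. PETC was 27.4-fold higher in C shoot, a log2 difference of 4.78 (SE 0.36) with an edgeR adjusted p of 3.44e-06. All 6 genes passed edgeR's quasi-likelihood test as higher in C shoot, where 27.3% of the 21267 genes tested did so and 24.7% were called lower.

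Under water deficit the gaps were narrower, a comparison that contains the root difference that chose the genes. In WD shoot against WD root the log2 difference was 8.04 (SE 0.42) for PsaE-B, 7.80 (SE 0.53) for PsaF, 7.41 (SE 0.49) for PsbS, 7.39 (SE 0.77) for PsbR, 6.58 (SE 0.73) for PsbO and 3.64 (SE 0.33) for PETC. These are 264-fold, 223-fold, 170-fold, 168-fold, 95.9-fold and 12.5-fold. The edgeR adjusted p ran from 5.11e-07 for PsaE-B to 3.46e-05 for PsbO, and all 6 genes were called higher in WD shoot, against 29.6% of the genes tested (30.2% were called lower). PsbS and PsbR lay within 1 SE of each other, and PETC was the lowest of the 6.

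Per gene length, on the RPKM scale of the authors, 5 of the 6 genes were among the most abundant transcripts of the shoot tip. In C shoot the mean was 1038 RPKM for PsaF, rank 30 among 26714 genes above 0, followed by 951 RPKM for PsbO (rank 34), 682 RPKM for PsbS (rank 47), 427 RPKM for PsbR (rank 79) and 332 RPKM for PsaE-B (rank 105). PETC had 18.8 RPKM and rank 2686. In WD shoot the leading member was PsbS, with 1183 RPKM and rank 32, and PsaF had 757 RPKM and rank 48. In C root none of the 6 exceeded the 2.12 RPKM of PsaF, and in WD root the highest was PsbO with 13.0 RPKM.

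In root tips every WD library held more of each of the 6 transcripts than every C library, at levels that stayed low. This is the contrast by which the genes were chosen, and a set of genes chosen this way has to show it. Over all 19545 genes tested in root, WD lay above C without overlap in 7.87%, and edgeR called 0% at an adjusted p under 0.05 (9.06% at an unadjusted p under 0.05). The median log2 difference of the 6 genes was 2.67, against 0.01 over all genes tested.

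PsbO and PsbR, both of photosystem II, had large differences that varied between libraries. PsbO had 9.35, 2.66 and 2.09 CPM in C root replicates 1, 2 and 3 (188, 60 and 35 reads) and 22.1, 20.2 and 56.6 CPM in WD root (328, 405 and 1452 reads). The log2 difference was 2.82 (SE 0.71). Replicate 3 of WD root was the high library and replicate 1 of C root lay well above the other C libraries, and without that C library the log2 difference was 3.79. PsbR had 1.29, 2.21 and 1.43 CPM in C root and 3.71, 14.1 and 32.4 CPM in WD root, a log2 difference of 3.35 (SE 0.77). The WD libraries of PsbR spanned 8.72-fold, and the log2 difference was 2.44 without WD root replicate 3 and 3.82 without WD root replicate 1.

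PsbS exceeded its C values by a similar margin but with another order of libraries. It had 1.89, 3.37 and 1.55 CPM in C root and 23.9, 11.9 and 16.2 CPM in WD root, a log2 difference of 2.93 (SE 0.40). The highest WD library for PsbS was replicate 1, which was the lowest for PsbR. The read ratio of PsbS to PsbR within a library was 1.46, 1.52 and 1.08 in C root and 6.44, 0.845 and 0.501 in WD root. This ratio varied more among the WD root libraries than among the C root libraries, while the ratios of PsbO to PsbR and of PsbO to PsbS overlapped between the groups and varied somewhat more in C root.

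Summed over the 6 root libraries, the photosystem I genes had the fewest reads, 212 for PsaE-B and 540 for PsaF. In C root alone PsaF had 180 reads, above PsbR (100) and PsbS (140). PsaE-B had 0.447, 0.664 and 0.417 CPM in C root (9, 15 and 7 reads) and 2.90, 2.50 and 3.43 CPM in WD root (43, 50 and 88 reads), a log2 difference of 2.51 (SE 0.33). Its 3 WD libraries lay closer together than those of PsbO or PsbR. PsaF had 3.53, 3.45 and 1.85 CPM in C root and 5.60, 4.59 and 7.21 CPM in WD root, with the smallest log2 difference of the 6 genes, 0.98 (SE 0.33), or 1.98-fold. The ratio of PsaE-B to PsaF reads was 0.127, 0.192 and 0.226 in C root and 0.518, 0.543 and 0.476 in WD root. These groups did not overlap. Such ratios contain the contrast that chose the genes, and no share over all gene pairs was computed for root. In shoot, 49.7% of all gene pairs had no overlap. The lack of overlap is therefore no result about this pair. The ratio of PsaE-B to PsaF also rests on 7 to 15 PsaE-B reads per C root library.

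PETC had 5.17, 3.50 and 2.21 CPM in C root (104, 79 and 37 reads) and 7.97, 9.78 and 15.5 CPM in WD root (118, 196 and 399 reads). The log2 difference was 1.62 (SE 0.39), or 3.08-fold. WD root replicate 3 was the highest root library for 5 of the 6 genes (PsbS excepted), and C root replicate 3 was the lowest C root library for 5 of the 6 (PsbR excepted). Across the 6 root libraries the correlation of log2(CPM + 0.5) between pairs of the 6 genes ran from 0.74 (PsbR with PsbS) to 0.98, with a median of 0.88 over 15 pairs. The WD and C groups and the libraries' depth are shared by all pairs, and these root correlations contain the contrast that chose the genes. Across the 6 shoot libraries the same correlations ran from -0.48 (PETC with PsaF) to 0.995, with a median of 0.67.

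**Figure D2:**
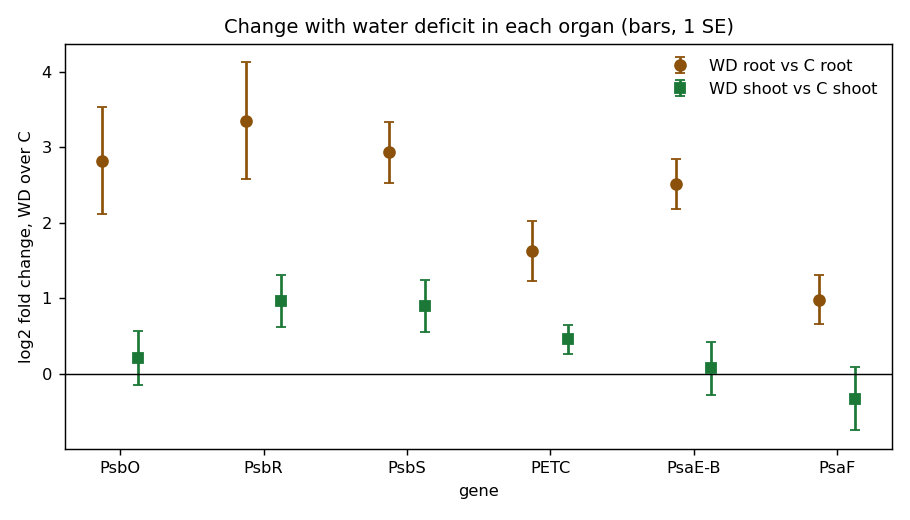
Log2 difference of WD from C for each of the 6 genes in root and in shoot, with bars of 1 SE from the edgeR fit over the 6 libraries of an organ. The root values, which chose the genes, run from 0.98 to 3.35, and the shoot values from -0.33 to 0.97.

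Root levels were also set against the shoot, gene by gene. The mean of PETC in root, as a percent of its C shoot mean, was 3.63% in C root and 11.1% in WD root. For PsbO it was 0.173% and 1.22%, for PsbR 0.115% and 1.17% and for PsbS 0.145% and 1.11%. For the photosystem I genes the percents were lower in WD root, with 0.184% and 0.362% for PsaF and 0.0694% and 0.401% for PsaE-B. In WD root the share of the shoot level was therefore highest for PETC and lowest for both photosystem I genes.

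The shares of other genes of the same chain varied widely. Some were near or above that of PETC. PsbA (VIT_13s0019g02630), a reaction centre protein of photosystem II, had 5.19% in C root and 9.19% in WD root. A P700 apoprotein A2 of photosystem I (VIT_18s0001g08620) had 4.23% and 13.6%. Both WD means were raised by replicate 3. WD root replicates 1, 2 and 3 had 3.70%, 6.59% and 17.3% for PsbA, and 8.41%, 5.33% and 27.0% for the P700 gene. The P700 gene had 39 reads in WD root replicate 3 and no more than 7 in any other root library. Its C shoot mean was only 5.62 CPM. PsbA had 104, 14.1 and 68.3 CPM in C shoot, so the base of its share varied widely. Both are gene models of core subunits, which are mostly encoded in the chloroplast, and the origin of their reads was not tested. Other genes had lower shares. The study's lists name 2 other gene models as PETC. The first (VIT_19s0014g03850) had 161 to 466 CPM in C shoot and 408 to 617 CPM in WD shoot, above the member in every shoot library, and no more than 2 reads in any root library. The second (VIT_03s0017g00940) had 57.2 to 158 CPM in C shoot and 147 to 225 CPM in WD shoot, and again no more than 2 reads in any root library. PETH, the ferredoxin-NADP oxidoreductase that ends the chain (VIT_04s0023g03510), had 319 to 1320 CPM in shoot libraries and no more than 5 reads in any root library. The member PETC therefore had root reads where the other gene models of that name had almost none, a contrast chosen after the values were seen. If the copies are near-identical, reads that align to more than 1 of them were not counted, and the counts of each are uncertain to that extent.

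LHB1B1 (VIT_12s0028g00320), a light-harvesting antenna protein of photosystem II that is abundant in leaves, had 0.0994, 1.28 and 2.68 CPM in C root and 36.8, 4.89 and 0.312 CPM in WD root. The groups overlapped, and WD root replicate 3, which was the highest for 5 of the 6 members, was the lowest WD library for LHB1B1. It had 1878 to 3491 CPM in C shoot and 1737 to 3922 CPM in WD shoot. CfoII (VIT_04s0008g05590), a subunit of the chloroplast ATP synthase, stood at 1.16% of its C shoot mean in C root and 1.496% in WD root. PsbQ (VIT_01s0026g02680), a partner of PsbO in the oxygen-evolving complex, had 1 read in all root libraries together. This gene model was also low in shoot, with means of 22.9 CPM in C shoot and 43.8 CPM in WD shoot. The means of PsbO were 2707 and 3168 CPM, so the root reads of the 2 genes are not directly comparable.

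**Figure D3:**
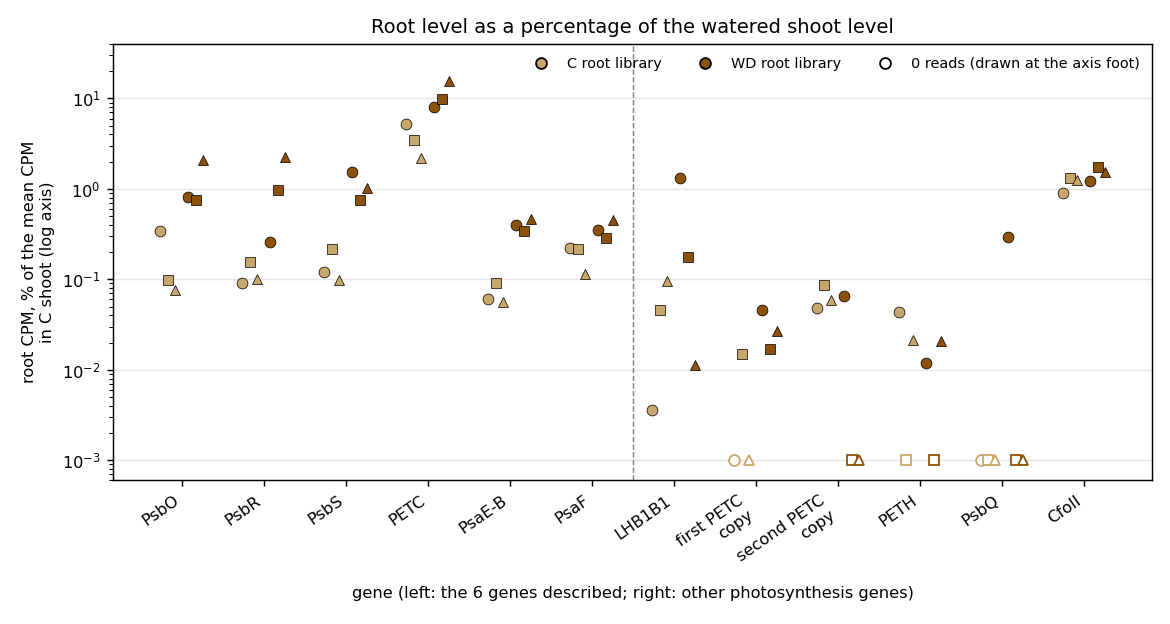
Level in each root library as a percent of the gene's own C shoot mean, on a log axis, for the 6 genes and for comparison genes of the same chain, with 1 point per library and open points at the axis foot for 0 reads. Among the genes drawn, the member PETC lies at the top, with means of 3.63% in C root and 11.1% in WD root. The 2 other gene models named PETC lie near the bottom. Listed genes with shares near or above that of PETC, such as PsbA (5.19% in C root, 9.19% in WD root), are not drawn.

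A wider set of transcripts that were abundant in shoot and scarce in root was examined beside the members, by a rule made after the data were seen. Among 1242 genes with at least 100 CPM in every shoot library, 88 had a mean over the root libraries under 1% of their shoot mean, and 5 of these were members (PETC was not). Over the 1242 genes, WD root lay above C root without overlap in 154 (12.4%) and below it in 67. Of the 83 that were not members, WD root lay above C root without overlap in 19 (22.9%) and below it in 0. Among these 83 genes, 14 had no more than 3 reads in any root library. The median log2 difference in root was 0.90 over the 48 of them that were tested. Their summed level was 101 to 114 CPM in the C root libraries and 262, 136 and 181 CPM in WD root replicates 1, 2 and 3. The summed level of the 5 members other than PETC in the same WD libraries was 58.3, 53.3 and 116 CPM, so that the highest library was replicate 3 for these members and replicate 1 for the other genes. The part of these transcripts in the root values of the members was not tested.

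In shoot tips PsbR, PsbS and PETC were higher in every WD library than in every C library, while for PsbO, PsaF and PsaE-B the groups overlapped. No member passed edgeR's test at an adjusted p under 0.05, where 27.1% of the 19569 genes tested in shoot passed, 13.1% as higher and 14% as lower. At an unadjusted p under 0.05, 2 members passed (PsbR and PsbS), against 42.8% of all genes. DESeq2, with its own size factors, called the same 2 at an adjusted p under 0.05, where it called 37.9% of all genes, and limma on log2(RPKM + 1) called 0, where it called 26.2%. The members' calls are near or below these shares. The 3 members without overlap are to be read against 25.6% of all genes tested. The median log2 difference of the members was 0.33, against -0.02 for all genes.

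PsbR had 2048, 886 and 1371 CPM in C shoot and 3111, 2823 and 2559 CPM in WD shoot. All WD libraries lay above the highest C library, and the WD libraries lay closer together. The log2 difference was 0.97 (SE 0.34, 95% interval 0.16 to 1.78), or 1.95-fold, with an edgeR adjusted p of 0.0753. Over the alternatives of edgeR, DESeq2 and limma the adjusted p ranged from 0.0117, which was that of DESeq2, to 0.228. Without C shoot replicate 1 the log2 difference was 1.28 and the edgeR adjusted p 0.0319.

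PsbS, the protein of heat dissipation, had 2277, 1025 and 1397 CPM in C shoot and 3329, 2887 and 2625 CPM in WD shoot. The libraries ranked as for PsbR. The log2 difference was 0.90 (SE 0.34, 95% interval 0.09 to 1.71), or 1.86-fold, with an edgeR adjusted p of 0.0901. Over the same alternatives the adjusted p ranged from 0.0187, again that of DESeq2, to 0.244. Without C shoot replicate 1 the log2 difference was 1.24 and the edgeR adjusted p 0.0298. PETC had 94.8, 102 and 103 CPM in C shoot and 142, 109 and 167 CPM in WD shoot. Its C libraries were the closest together of any member. The log2 difference of PETC was 0.46 (SE 0.20, 95% interval -0.01 to 0.92), with an edgeR adjusted p of 0.122.

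PsbO had 3777, 1733 and 2612 CPM in C shoot and 3972, 3051 and 2482 CPM in WD shoot, a log2 difference of 0.21 (SE 0.36, 95% interval -0.64 to 1.06). The lowest WD library lay within the C range. PsaE-B had 1012, 418 and 773 CPM in C shoot and 982, 729.9 and 628 CPM in WD shoot, a log2 difference of 0.07 (SE 0.35, 95% interval -0.76 to 0.90). PsaF had 2252, 957 and 1603 CPM in C shoot and 1835, 1285 and 767 CPM in WD shoot, a log2 difference of -0.33 (SE 0.42, 95% interval -1.33 to 0.68). It was the only member with a value below 0. The edgeR adjusted p was 0.685 for PsbO, 0.896 for PsaE-B and 0.585 for PsaF. Without C shoot replicate 2 the log2 difference was -0.02 for PsbO and -0.20 for PsaE-B.

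Shoot replicates of 1 group differed together in most members. C shoot replicate 1 was the highest and replicate 2 the lowest C library for 5 of the 6 genes, with PETC the exception. WD shoot replicate 1 was the highest WD library for 5 of the 6, PETC again excepted. Ratios between genes within a library, which do not depend on depth or scaling, were more even among the C shoot libraries than the levels for pairs without PETC.

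Within the shoot libraries PsbR and PsbS were higher relative to both photosystem I genes in WD than in C. The read ratio of PsbR to PsaF was 0.909, 0.926 and 0.856 in C shoot and 1.70, 2.197 and 3.33 in WD shoot, a difference of 1.37 in mean log2 ratio. The ratio of PsbS to PsaF was 1.01, 1.07 and 0.872 in C shoot and 1.81, 2.25 and 3.42 in WD shoot, a difference of 1.29. Against PsaE-B the ratio of PsbR was 2.02, 2.12 and 1.77 in C shoot and 3.17, 3.87 and 4.07 in WD shoot, and that of PsbS was 2.25, 2.45 and 1.81 and then 3.39, 3.96 and 4.18. In each of these 4 pairs all WD libraries lay above all C libraries. No overlap, in either direction, was found in 49.7% of all gene pairs in shoot, so this is no result about the 4 pairs.

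The same order was seen within photosystem II. The ratio of PsbR to PsbO was 0.542, 0.511 and 0.525 in C shoot and 0.783, 0.925 and 1.03 in WD shoot, and that of PsbS to PsbO was 0.603, 0.592 and 0.535 and then 0.838, 0.946 and 1.06. PsbR and PsbS kept nearly the same ratio, 0.90, 0.864 and 0.982 in C shoot and 0.935, 0.978 and 0.975 in WD shoot, with overlap. PsbO was also higher against PsaF, going from 1.68, 1.81 and 1.63 to 2.16, 2.37 and 3.23, while the ratio of PsbO to PsaE-B overlapped, with 3.73, 4.15 and 3.38 in C shoot and 4.04, 4.18 and 3.95 in WD shoot. Of the 15 pairs of genes, 8 had ratios without overlap between WD and C shoot libraries. Over all pairs of the 19271 genes tested in shoot with a read in every shoot library, 49.7% of the ratios had no overlap, so the members' count is near the background and is no result about them. The pairs share genes and libraries, the ratios were examined after the levels had been seen, and no test was made of them. With 3 libraries against 3 the smallest exact two-sided permutation p would be 0.1.

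**Figure D4:**
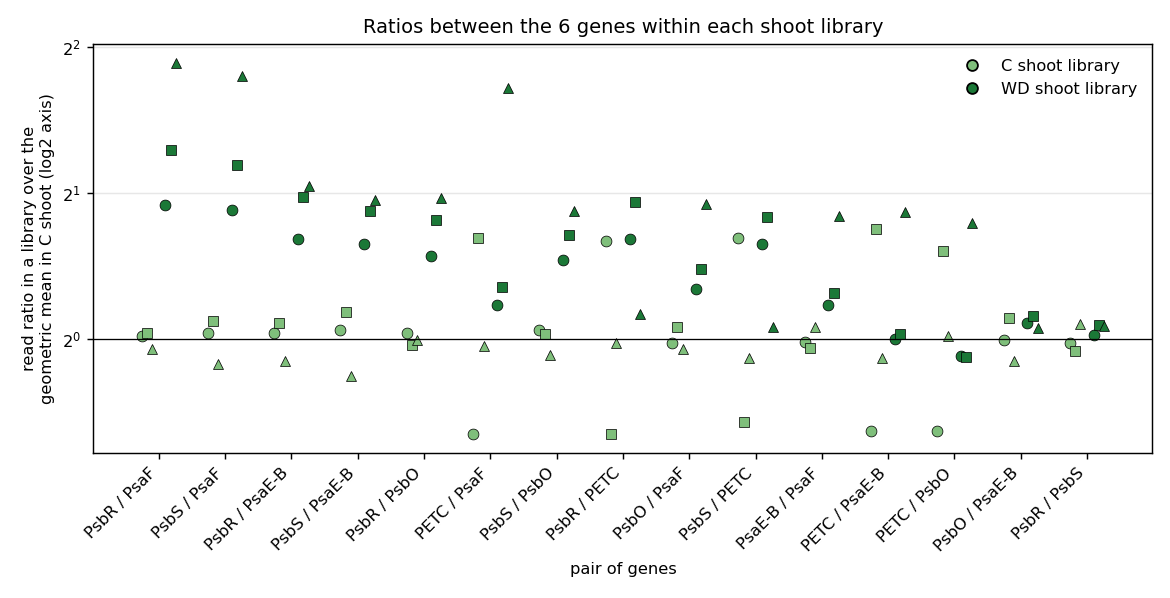
Read ratio of each of the 15 pairs of genes within each shoot library, divided by the geometric mean of that ratio in C shoot, on a log2 axis, with light points for C and dark points for WD libraries and 1 marker shape per replicate number. The 3 WD points lie above the 3 C points in 8 pairs (no overlap was found in 49.7% of all gene pairs), and the ratio of PsbR to PsbS stays near 1 in all 6 libraries.

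The difference between the organs' responses, the shoot log2 difference minus the root one, was below 0 for all 6 genes. It was -2.58 (SE 0.83) for PsbO, -2.41 (SE 0.49) for PsaE-B, -2.36 (SE 0.86) for PsbR, -2.01 (SE 0.54) for PsbS, -1.28 (SE 0.57) for PsaF and -1.13 (SE 0.44) for PETC. This value contains the root difference that chose the genes and is given with no test. Over all 21267 genes tested, 10057 had a value above 0 and the median was -0.05. Of all genes, 0.607% were called in this comparison. The members, which were given no test, are not to be set against that share.

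The study's lists hold 20 other photosynthesis genes, among them chloroplast-type core subunits (PsbA, PsbC, PsbD and the P700 apoproteins), plastocyanin-domain proteins, PETH and PsbQ. The study chose them as differing with water deficit on these same libraries, and the shoot list was held in part. Their counts and p-values for WD against C, in root and in shoot, are therefore descriptions. They are not independent evidence of a change or of its direction. In shoot 19 were tested, 17 had a log2 difference above 0, and the median was 1.05. Over all genes tested in shoot, 13.1% were called higher in WD and 14% lower. Of the 19, 2 were called higher in WD shoot, 1 was called lower and 16 did not pass. The higher ones were a plastocyanin-domain protein (VIT_19s0014g02460, log2 difference 1.96, SE 0.28, edgeR adjusted p 0.0103) and an NADPH-cytochrome P450 oxidoreductase (VIT_18s0001g07630, 0.78, SE 0.21, 0.0365). The lower one was another plastocyanin-domain protein (VIT_09s0018g00520, -3.18, SE 0.76, 0.0274). None of the 3 is a photosystem or cytochrome b6f subunit. NADPH-cytochrome P450 oxidoreductases are known as electron donors to P450 enzymes of the endoplasmic reticulum.

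The 2 other gene models named PETC had shoot log2 differences of 0.75 (SE 0.39, edgeR adjusted p 0.186) and 0.78 (SE 0.36, edgeR adjusted p 0.152), both with overlapping groups. PETH had 1.05 (SE 0.36, edgeR adjusted p 0.0705) without overlap. The study listed these genes for differing on the same libraries, so these p-values are descriptions too. In root only 8 of the 20 had enough reads to be tested. There edgeR called 0 of them, with 1 at an unadjusted p under 0.05 and 1 called by DESeq2. Over all 19545 genes tested in root, 9.06% had an unadjusted edgeR p under 0.05 and DESeq2 called 441. Between organs, 12 of 17 tested were called higher and 1 lower in C shoot than in C root. In WD shoot against WD root, 14 were called higher and 1 lower. Over all genes tested, 27.3% were called higher and 24.7% lower in C shoot, and 29.6% higher and 30.2% lower in WD shoot.

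Among 17944 genes tested in both organs, 26 had a correlation over 0.9 with the mean log2(CPM + 0.5) of the 6 members in each organ taken alone. The genes most like it were VIT_00s0259g00200, with r of 0.99 over the 6 root libraries and 0.97 over the 6 shoot libraries, and VIT_10s0116g01740, with 0.97 in each. VIT_00s0259g00200 had 27.0 ± 1.10 CPM in C root, 35.1 ± 1.97 CPM in WD root, 51.3 ± 9.68 CPM in C shoot and 61.3 ± 7.67 CPM in WD shoot (SD, n = 3), so that it followed the order of the libraries over a much narrower range than the members. The correlation is a description over libraries that share treatment and depth.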

How the data were processed

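RNA-seq of 12 libraries was used, with groups and replicate numbers from the sample labels. The authors trimmed the 100 bp single-end reads with Prinseq (Phred above 20, at least 20 bp), aligned them with TopHat 2.0.8 and Bowtie2 2.1.0 to the PN40024 12X assembly and deposited raw counts per gene from htseq-count, whose strand setting is not given in the sources used here. They also deposited RPKM per library from Cufflinks (2.2.2 in the submitters' processing notes), in a separate table per organ, so RPKM was compared within an organ only. The authors' own comparisons (fold changes, p-values) were not used. Lines of the count tables that name no gene were left out. There were 0 columns of values without a sample.

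Counts were filtered with filterByExpr, scaled by TMM and tested with the quasi-likelihood test of edgeR 4.0.16 (R 4.3.3), WD against C within each organ and organs over 12 libraries, with Benjamini-Hochberg adjustment over all genes and a threshold of 0.05. The SE is the absolute log2 difference divided by the square root of F, and 95% intervals use the fit's degrees of freedom. Counts of PsaE-B were low in C root (7 to 15 reads). Replicate libraries differed beyond sampling noise, with a chi-square of 22.5 to 163 per degree of freedom. The p-values measure the spread between these libraries of pooled vines. DESeq2 1.42.0, limma 3.58.1 on log2 RPKM with a pseudocount of 1 or 0.1, other scalings, filters, a replicate block, a single model and each library left out were alternatives. The code was tested on simulated counts. The members and lists were chosen with earlier results of these data known. The genes named are the 6 members, other gene models of a member's subunit, and those most like the members by the smaller of their root and shoot correlations. The reference table matched 0 of the gene identifiers, so descriptions and sequences were not used here.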

Additional observations from a re-analysis of the deposited data

How the results depend on the processing

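The 6 members were called higher in shoot than in root, in C and in WD, under every alternative in which they were fitted. With at least 10 counts in every library PsaE-B could not be fitted with root libraries, which left 5 members called in each comparison of organs. In shoot DESeq2 called 2 members, and leaving out 1 library gave 0 to 2, with 2 without C shoot replicate 1. The cause was not tested. The median root difference was 1.41 with limma on log2(RPKM + 1), where the pseudocount is large beside the C root levels, and 2.28 to 2.85 with 1 library left out. The median of shoot minus root was -2.43 to -1.70 with 1 library left out, the latter without WD root replicate 3. For the other photosynthesis genes in shoot, the number called higher was 5 with DESeq2, 1 with total counts, 1 with either limma setting and 1 to 7 with 1 library left out, and the number called lower was 0 to 1 with 1 left out. In root DESeq2 called 1 higher. With at least 10 counts in every library 4 were higher in C shoot than in C root and 5 in WD shoot than in WD root, since fewer genes were tested, and 0 to 1 were lower in WD shoot with 1 library left out.

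Deviations of same-numbered C and WD libraries of an organ had correlations of -0.435 to 0.155. For same-numbered root and shoot libraries of a water group they ran from 0.002 to 0.298, and for different numbers from -0.326 to 0.141. The study took root and shoot tips at the same time, so same-numbered libraries may share vines, which the labels do not give. The numbers were not taken as pairs in the main fits, whose SEs between organs treat the 12 libraries as independent. For shoot minus root response, 757 of all genes were called with the replicate block and 129 without it. With the replicate block 0 members were called in shoot and 6 in each comparison of organs. The block called 1 other photosynthesis gene higher and 0 lower in shoot, and 3737 of all genes against 5301 without it. The count of all genes called in shoot was 7414 with DESeq2, 713 when WD shoot replicate 2 was left out and 632 when C shoot replicate 3 was. Scaling by total counts moved the median log2 difference of all genes by -0.10 in shoot, by -0.12 in C shoot against C root and by -0.28 in WD shoot against WD root, and in shoot the share of called genes that were higher from 48.3% to 37.7%, and limma gave 34.5% and 35.04%. PsaE-B had 7 to 15 reads in the C root libraries, which excluded it under the stricter filter.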
